A study of Mus musculus with 6 samples.

Results

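The genes of the major histocompatibility complex (MHC) and of antigen presentation were followed in taste cells of mice of 2 ages. They were taken as every gene of the deposited expression table whose name starts with H2-, together with B2m, Cd74, Tap1, Tap2, Tapbp, Ciita and Nlrc5, which gave 51 of the 23361 rows, 44 of them H2- rows. Of the 51, 25 had a mean of at least 1 FPKM (fragments scaled by transcript length and by the size of the library) over both ages and are called expressed here. Another 18 were above 0 with a lower mean, and 8 were listed at 0 in both ages. The H2- names include H2-Ke2, a prefoldin subunit also named Pfdn6, and H2-Ke6, a hydroxysteroid dehydrogenase, which encode no MHC protein and were kept apart.

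C57BL/6 mice gave taste receptor cells of their circumvallate and foliate papillae (CV/Fol), which were freed from the tongue with enzymes, in 3 pools of 4 mice at 2 months of age and 3 pools of 3 mice at 6 months, so that the groups differ in age and in the number of mice per pool. The labels name no transgene or drug in either group. The study asked which genes change in taste cells between these ages, and the series' design text names 3 months in 1 place where the sample labels give 2. The deposited table holds 1 FPKM value per gene and age, so there is no value per pool, no SD and no test here, and whether a difference exceeds the spread between pools cannot be said. Changes are given as log2(FPKM + 1) at 6 months minus 2 months, a scale that shrinks the changes of low genes, and ratios as FPKM at 6 months over FPKM at 2 months. FPKM gives no depth, which is unknown.

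Class I molecules are cell surface proteins of a heavy chain, the light chain beta-2-microglobulin and a short peptide from inside the cell. They are found on nearly all nucleated cells, and cytotoxic T cells read them. The peptide is cut by the proteasome, carried into the endoplasmic reticulum by the transporter Tap1/Tap2 and fitted into the groove by a loading complex that holds tapasin (Tapbp). Class II molecules are pairs of an alpha and a beta chain that show peptides from outside the cell to helper T cells, and they are made mainly by dendritic cells, Langerhans cells, macrophages and B cells. The invariant chain Cd74 fills their groove until H2-DM exchanges it for a peptide. Nlrc5 and Ciita are the co-activators that switch on class I and class II promoters, and interferons raise both.

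The promoters of several of these genes carry sequence blocks through which such co-activators and interferon-responsive factors are known to act. They are shown because members of both classes share some of these blocks. The sequences are from RefSeq (GRCm38.p6), on the strand of the gene. The H2-Q7 stretch lies at chr17:35439017-35439119 on the plus strand, 138 to 36 bases before the start site. For H2-K1 and H2-D1, where annotated transcripts reach into the window, only the paired motifs are printed. They lie at chr17:34000429-34000457 and chr17:34000359-34000388 on the minus strand for H2-K1, and at chr17:35262924-35262952 and chr17:35262993-35263022 on the plus strand for H2-D1. The others lie at chr2:122147603-122147644 (B2m, plus strand), chr17:34287861-34287903 (H2-Aa, minus strand) and chr17:34305802-34305842 (H2-Eb1, plus strand). Capitals mark 4 motifs searched on both strands: a kappa B site (GGGATTCCC), the interferon-stimulated response element or ISRE (GAANNGAAA, here as its complement), the core of the X2 box (TGACG) and the Y box (ATTGG, or CCAAT on the other strand).
H2-Q7: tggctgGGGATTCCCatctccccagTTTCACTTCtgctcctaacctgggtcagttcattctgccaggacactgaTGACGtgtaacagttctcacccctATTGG
H2-K1, kappa B and ISRE: GGGATTCCCcatctccacagTTTCACTTC
H2-D1, kappa B and ISRE: GGGATTCCCcatctcctcagTTTCACTTC
H2-K1, X2 and Y: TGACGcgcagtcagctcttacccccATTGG
H2-D1, X2 and Y: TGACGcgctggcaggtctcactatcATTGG
B2m: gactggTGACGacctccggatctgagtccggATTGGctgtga
H2-Aa: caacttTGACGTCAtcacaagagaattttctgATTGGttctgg
H2-Eb1: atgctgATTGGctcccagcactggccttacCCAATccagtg

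In H2-Aa, the X2 core matched on both strands in overlapping letters, and in H2-Eb1 the Y box matched on each strand with no TGACG in the window. Promoter windows of 300 bases, 250 of them before the start site, were found for 35 of the members, 39 windows in all. The Y box letters were in 33 of these 39 windows (84.6%) and in 37.4% of all 32851 windows of the table. The X2 core was in 17 (43.6%, against 20.8% of all windows), the ISRE in 9 (23.1%, against 7.52%) and the kappa B letters in 5 (12.8%, against 0.353%). Among class II members with a window, H2-Aa alone had the X2 core, and none had an ISRE or kappa B match. An X2 core followed, on its own strand, by a Y box in the same orientation with first bases 20 to 30 apart, a range set after the positions had been seen, was in 7 member windows (17.9%) and in 0.435% of all. These 7 belong to H2-K1, which has 2 windows, and to H2-D1, H2-Q7, H2-M3, B2m and H2-Aa, and the spacing was 24 to 26 bases in each. Windows of H2-M10.1, H2-M10.3, H2-M10.4 and H2-M10.5 also hold both motifs on 1 strand, the minus strand, 30 bases apart, but in the other order, with the Y box first on that strand, and are not counted. Class I copies share ancestry, so their windows are not independent of each other, and a match of letters is a description and not a bound site. The motifs were picked as blocks known to act in such promoters, so their higher shares in members are not separate support.

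**Figure D1:**
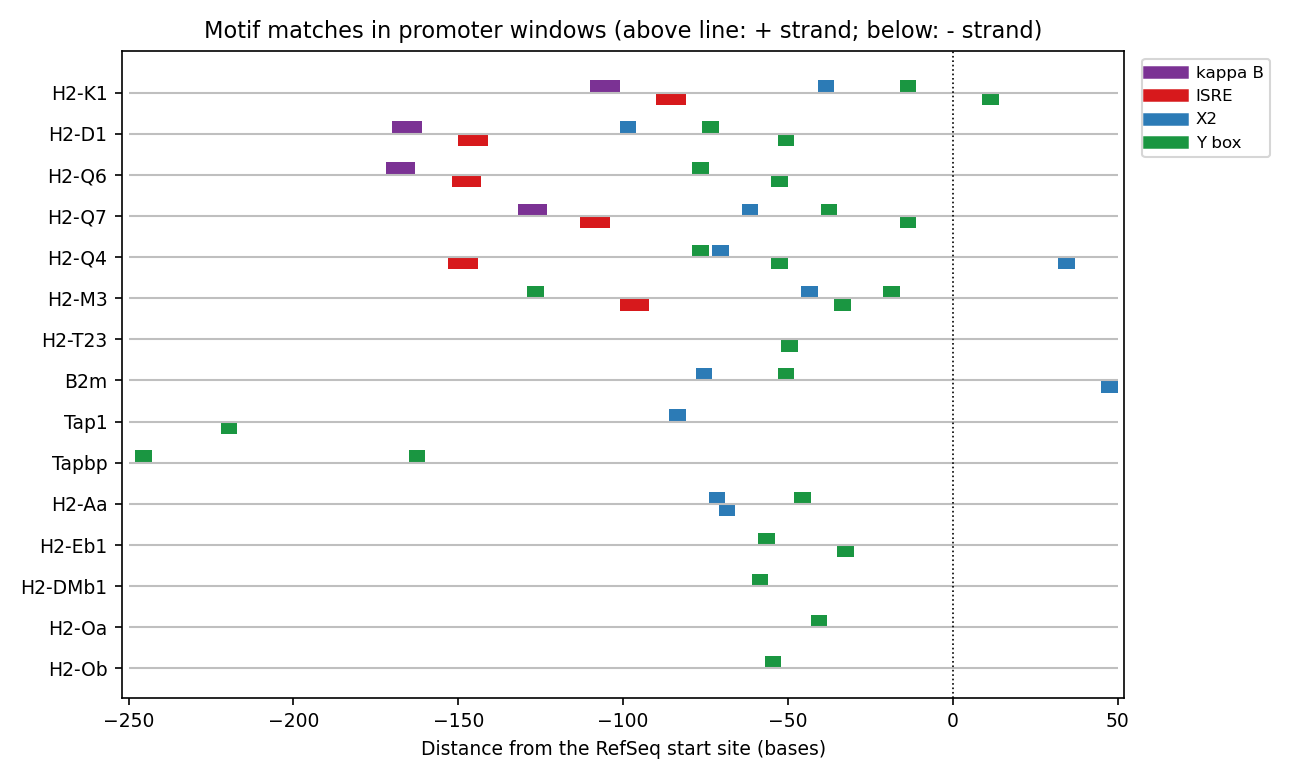
Matches to the kappa B, ISRE, X2 and Y box letters (coloured blocks, plus strand above the line and minus strand below) in the RefSeq promoter windows of 15 genes, by distance from the start site in bases. H2-K1, H2-D1, H2-Q6 and H2-Q7 share the order of a kappa B match and an ISRE match 19 or 20 bases on, while the class II genes H2-Aa, H2-Eb1, H2-DMb1, H2-Oa and H2-Ob carry X2 or Y box matches with no kappa B or ISRE match.

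Taste cell preparations of both ages held abundant class I and class II transcripts, and most expressed members were slightly higher at 6 months. Of the 25 expressed members, 21 had the higher FPKM at 6 months and 4 at 2 months, where 46.3% of the 12652 expressed genes of the table were higher at 6 months. H2-T10 and H2-Q7,H2-Q9, both among the 21, reach a mean of 1 FPKM only through their 6 month values. The median change of the members was 0.11 on the log2(FPKM + 1) scale, with a range of -0.12 to 0.89, and that of all expressed genes was -0.01 with quartiles of -0.10 and 0.08. With H2-Ke2 and H2-Ke6 left out, 20 of 23 were higher and the median was 0.15. Summed over all members, the level went from 922.4 to 1000.5 FPKM, a ratio of 1.08. The share of all genes that were higher moved to 52.2% when the 6 month values were scaled to the same upper quartile, with a median of 0.01. It moved to 49.6% when their median change was brought close to 0. The count of members stayed at 21 of 25 under both scalings. Both multiply the 6 month values by more than 1 (1.015 and 1.009), so that count could not fall.

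Large changes were few. Values at 6 months were 1.5-fold higher or more, after adding 1 FPKM, for 1 of the 25 members, the row H2-Q7,H2-Q9, which had a mean of 1 FPKM or more only through its 6 month value, beside 1.05% of all expressed genes, and that much lower for 0 of 25, beside 1.72%. With a smaller threshold, a change of 0.322 on the log2(FPKM + 1) scale, 5 members were higher (B2m, H2-Q4, H2-Q5, H2-T9 and H2-Q7,H2-Q9), beside 2.95% of all expressed genes, and 0 were lower, beside 4.23%. All 5 are class I genes. H2-L, with a change of 0.320, lay just under it.

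**Figure D2:**
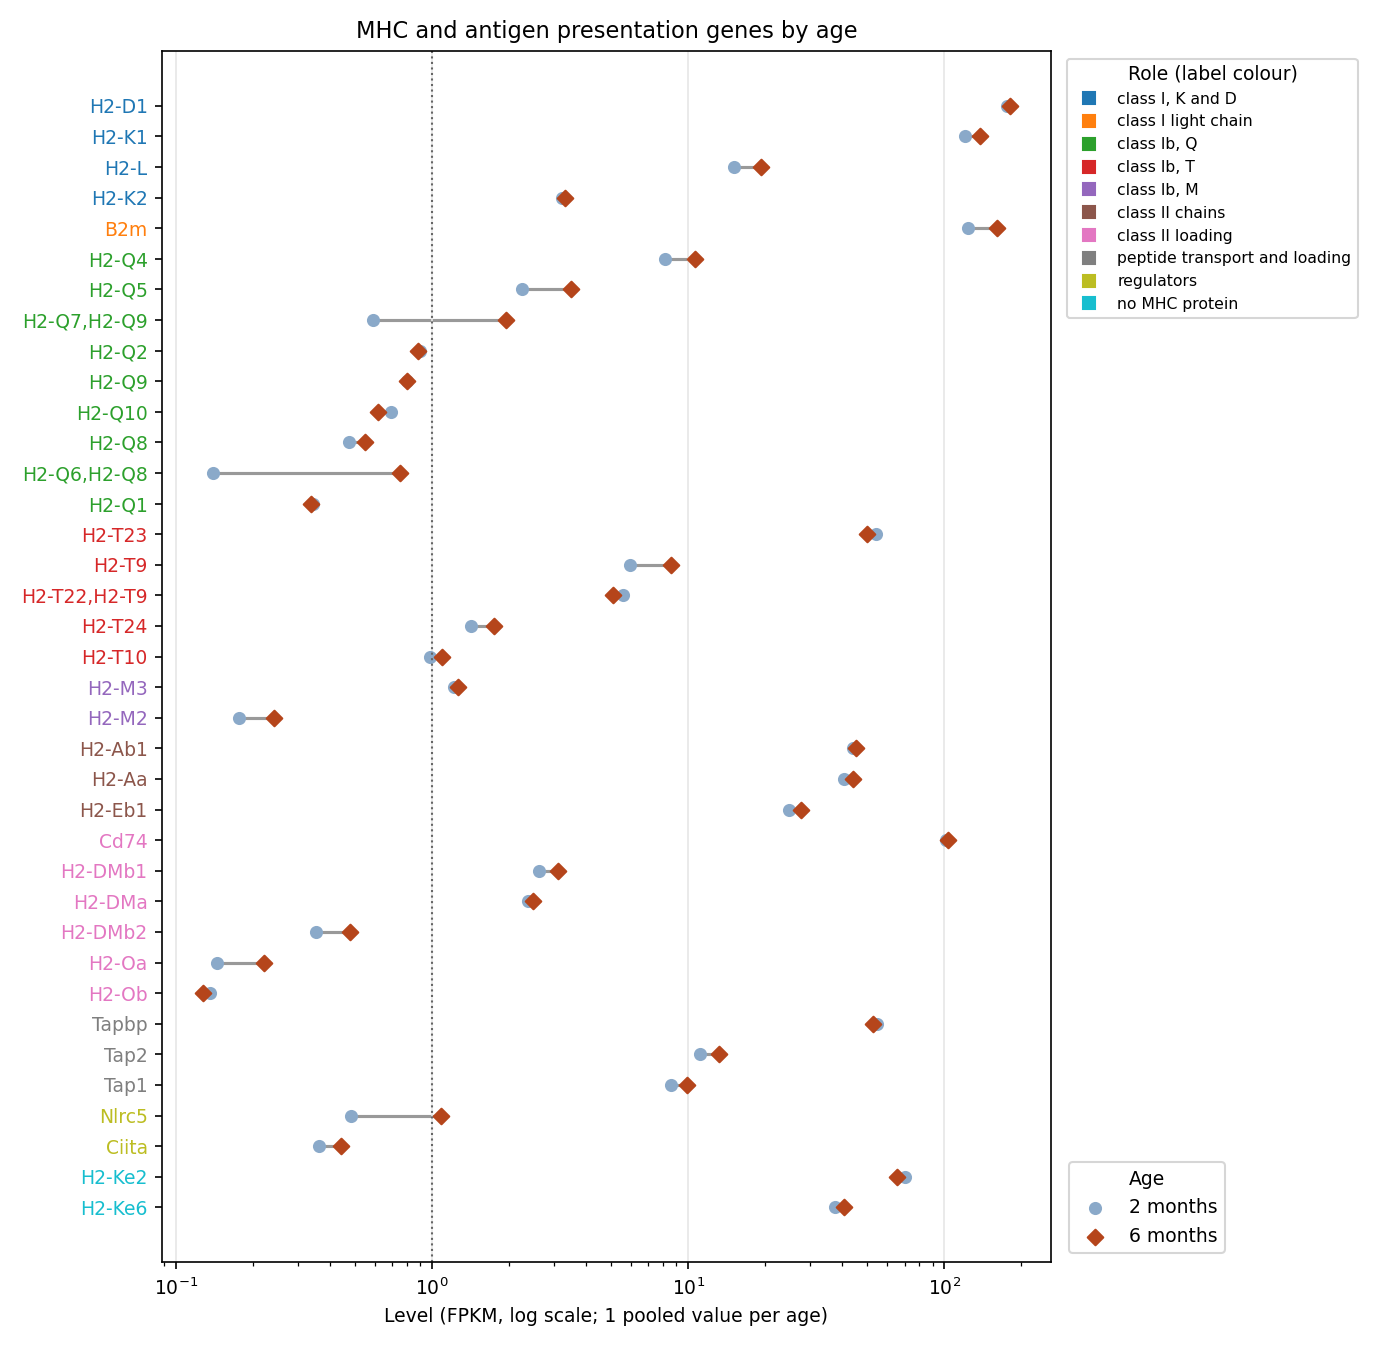
FPKM at 2 months (circles) and 6 months (diamonds) on a log axis for members averaging 0.1 FPKM or more, 1 pooled value per age, with names coloured by role; the dotted line marks 1 FPKM. H2-D1, H2-K1, B2m and Cd74 are above 100 FPKM at both ages, and the widest gaps are those of weakly expressed rows (H2-Q6,H2-Q8, H2-Q7,H2-Q9 and Nlrc5).

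The classical class I heavy chains H2-D1 and H2-K1 were among the most abundant members. H2-D1, on chromosome 17 (35263094 to 35267497, 8 exons), was at 175.6 FPKM at 2 months and 181.0 FPKM at 6 months. It was among the highest genes of the table, with 3.76% of expressed genes as high or higher. H2-K1 (chromosome 17, 33996012 to 34000619, 8 exons) was at 121.0 and 137.5 FPKM, a change of 0.18. The sequence annotated as H2-L, which in some mouse strains encodes a further heavy chain, was at 15.2 and 19.2 FPKM. H2-L was given no RefSeq position here, and whether these C57BL/6 mice carry it as a gene of its own was not tested. Whether its reads belong to another class I gene was not tested either. The transcribed pseudogene H2-K2 was at 3.22 and 3.32 FPKM. All 4 rows were higher at 6 months, by between 0.03 and 0.32 on the log2(FPKM + 1) scale. Their summed level, with the H2-L row in it, went from 315.0 to 341.0 FPKM, a ratio of 1.08. H2-K1 and H2-D1 together held 74.3% of all class I heavy chain FPKM at 2 months and 74.2% at 6 months.

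The light chain differed more between the ages than the abundant heavy chains H2-D1 and H2-K1, and about as much as H2-Q4. B2m, on chromosome 2 (122147687 to 122153082, 4 exons), was at 123.4 FPKM at 2 months and at 161.3 FPKM at 6 months, a change of 0.38 and a ratio of 1.31. It was the largest change among the members above 20 FPKM. Among the 905 expressed genes within 2-fold of its mean level, 8.62% changed as much in either direction. FPKM is scaled by length, so genes can be set side by side: H2-K1 was at 0.981 of the B2m level at 2 months and 0.852 at 6 months, H2-D1 at 1.42 and 1.12, and all heavy chain rows summed at 3.23 and 2.66.

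The Q region encodes class Ib molecules, which are less variable than H2-K and H2-D, and Qa-2 is made from H2-Q6 to H2-Q9. Of 9 Q rows, 3 were expressed. H2-Q4 and H2-Q5 were past the smaller threshold, higher at 6 months, and so was H2-Q7,H2-Q9, which counts as expressed only through the age at which it was high. H2-Q4 was at 8.15 and 10.7 FPKM, a change of 0.35. The transcribed pseudogene H2-Q5 was at 2.24 and 3.49 FPKM, a change of 0.47. The row H2-Q7,H2-Q9, which the table gives under both symbols, was at 0.587 and 1.95 FPKM, a change of 0.89 and a ratio of 3.32, and 0.925% of the 1729 genes of like level changed as much. A second row with 2 symbols, H2-Q6,H2-Q8, went the same way from 0.139 to 0.75 FPKM, a change of 0.62, but its mean is under 1 FPKM. The other Q rows were nearly level: H2-Q2 was at 0.90 and 0.881 FPKM, H2-Q9 at 0.796 and 0.795, H2-Q10 at 0.693 and 0.618, H2-Q8 at 0.476 and 0.549, and H2-Q1 at 0.342 and 0.338. The sign of H2-Q9 turned under both scalings and that of H2-Q1 under the upper quartile scaling. Summed over the 9 rows, the Q genes went from 14.3 to 20.0 FPKM, a ratio of 1.40.

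The T region did not move in 1 direction. H2-T23, which encodes Qa-1, the ligand of inhibitory receptors on natural killer cells, was the highest class Ib gene, at 54.2 FPKM in the younger and 49.7 FPKM in the older mice, a change of -0.12. H2-T9 was at 5.94 and 8.61 FPKM (0.47), while the row H2-T22,H2-T9 was at 5.57 and 5.10 FPKM (-0.11). H2-T22 encodes a ligand of gamma delta T cells. H2-T24 was at 1.42 and 1.74 FPKM. The pseudogene H2-T10, at 0.985 and 1.09 FPKM, counts as expressed only through its 6 month value. The 7 T rows summed to 68.1 and 66.4 FPKM, a ratio of 0.974. Of 12 M region genes, H2-M3, which presents formylated peptides, was expressed, at 1.22 and 1.26 FPKM. H2-M2 followed at 0.176 and 0.242 FPKM, 7 were listed at 0 in both ages, and the 3 others were under 0.14 FPKM. Over all 32 class I heavy chain rows, 11 of the 13 expressed were higher at 6 months and the sum went from 399.0 to 429.0 FPKM.

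**Figure D3:**
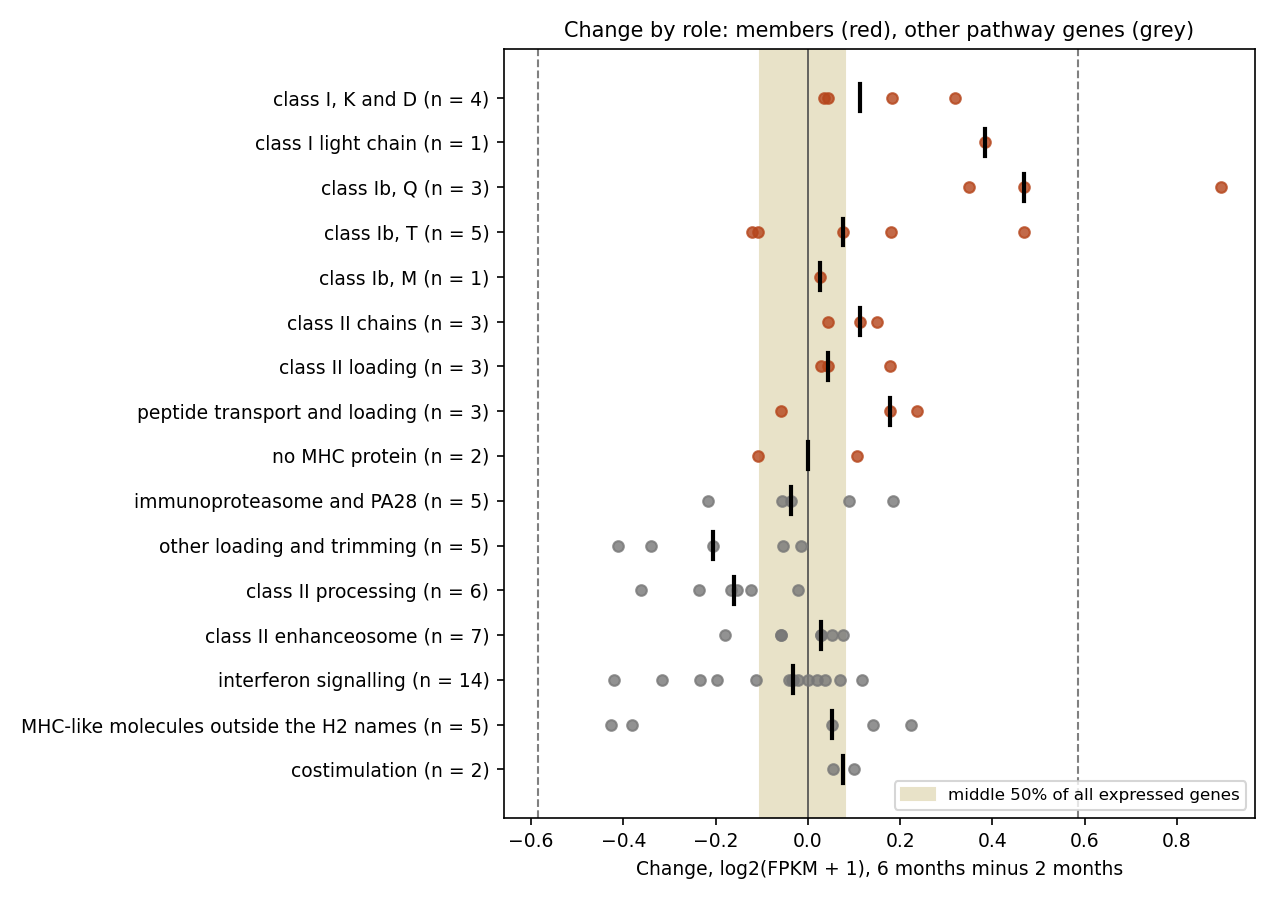
Change in log2(FPKM + 1), 6 months minus 2 months, of each expressed member (red, by role) and of pathway genes outside the name rule (grey), with medians as black bars, 1.5-fold lines dashed and the middle 50% of all expressed genes shaded from -0.10 to 0.08. The Q genes and B2m lie to the right of the shading, as do members of other roles, among them H2-T9, H2-L, Tap1 and Tap2. The 5 loading and trimming genes and 6 class II processing genes lie at or below 0.

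Class II chains were abundant and differed little between the ages. H2-Ab1 was at 44.0 FPKM at 2 months and 45.3 FPKM at 6 months, H2-Aa at 40.7 and 44.0 FPKM, and H2-Eb1 at 24.7 and 27.5 FPKM, with changes of 0.04, 0.11 and 0.15. H2-Eb2 was at 0.0102 and 0.00447 FPKM and the pseudogene H2-Ea-ps was listed at 0. The invariant chain Cd74 was at 101.7 and 103.8 FPKM, 2.31 and 2.29 times H2-Ab1. The peptide exchange factor H2-DM was at lower levels, with H2-DMb1 at 2.62 and 3.10 FPKM, H2-DMa at 2.38 and 2.48 FPKM and H2-DMb2 at 0.351 and 0.480 FPKM. Its inhibitor H2-DO, typical of B cells, was near the floor, with H2-Oa at 0.144 and 0.220 FPKM and H2-Ob at 0.136 and 0.127 FPKM. All 6 expressed class II members were higher at 6 months, with changes of 0.03 to 0.18 and a median of 0.08, and their rows summed to 216.6 and 227.1 FPKM, a ratio of 1.05.

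Since class II molecules are made mainly by immune cells, markers of such cells were read beside them. In a bulk preparation, fewer cells of a type and less RNA per cell cannot be told apart. All 6 general leukocyte markers were expressed and 5 were higher at 6 months, with Ptprc (CD45) at 1.54 and 1.65 FPKM, Cd52 at 15.8 and 19.5 FPKM, and a summed level of 33.8 and 38.0 FPKM. H2-Aa was at 26.3 times the Ptprc level at 2 months and 26.6 times at 6 months. Of 9 Langerhans and dendritic cell markers, 2 were expressed, Cd207 (langerin) at 1.56 and 1.94 FPKM and Itgax at 1.76 and 2.08 FPKM. The others were above 0 but under 1 FPKM. Of these, Batf3, Cd209a, Xcr1 and Ccr7 were higher at 6 months, and Zbtb46, Flt3 and Clec9a lower. The list summed to 4.59 and 5.84 FPKM. H2-Aa was at 26.02 times the Cd207 level at 2 months and 22.66 times at 6 months. This ratio was lower at 6 months, while that of H2-Aa to Ptprc was nearly level. Of 10 macrophage and monocyte markers in the table, 7 were expressed, 4 of them higher and 3 lower at 6 months. Their list sum went from 335.4 to 293.6 FPKM, most of it Lyz2 at 293.3 and 253.7 FPKM. Those lower were Lyz2, Cd68 and C1qa. Cd68 had the largest change of the 7, -0.44 with a ratio of 0.712, and was the only one past the smaller threshold. Csf1r, among those higher, was at 2.56 and 3.13 FPKM. None of the 5 B cell markers was expressed, with sums of 1.15 and 0.828 FPKM. Of 6 T cell markers 1 was, Cd3g at 1.55 and 1.31 FPKM, with list sums of 3.07 and 4.23 FPKM. Under 1 FPKM, Lck (0.351 and 0.931), Cd3e (0.370 and 0.822), Cd3d (0.501 and 0.728) and Cd8a (0.117 and 0.267) were higher at 6 months. Cd4 was at 0.184 and 0.168 FPKM. The part of these cells in the class I and class II levels was not tested.

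The preparations carried the markers of their label. All 9 taste markers were expressed, among them Gnat3 at 84.7 and 79.9 FPKM and Krt8 at 234.3 and 196.7 FPKM, with a list sum of 502.2 and 459.3 FPKM. Of the 9, 5 were higher at 6 months, with a median of 0.05, and Tas1r3 was at 14.6 FPKM at 6 months, 1.42 times its level at 2 months, a change of 0.47. The study itself found Tas1r3 unchanged between these ages by qRT-PCR, and it reports no change of taste cell markers in its sequencing data. The basal keratinocyte genes Krt5 (2180 and 1962 FPKM) and Krt14 (1287 and 1533 FPKM) were higher than any member. Krt4 was at 7334 FPKM at 2 months and listed at 0 at 6 months, so a 0 in this table can be a failed estimate. None of 4 endothelial markers was expressed, and of 5 fibroblast markers Dcn was at 42.0 and 27.3 FPKM, Pdgfra at 1.10 and 1.05 FPKM, and the collagen genes Col1a1, Col1a2 and Col3a1 at 0.144 FPKM or less.

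**Figure D4:**
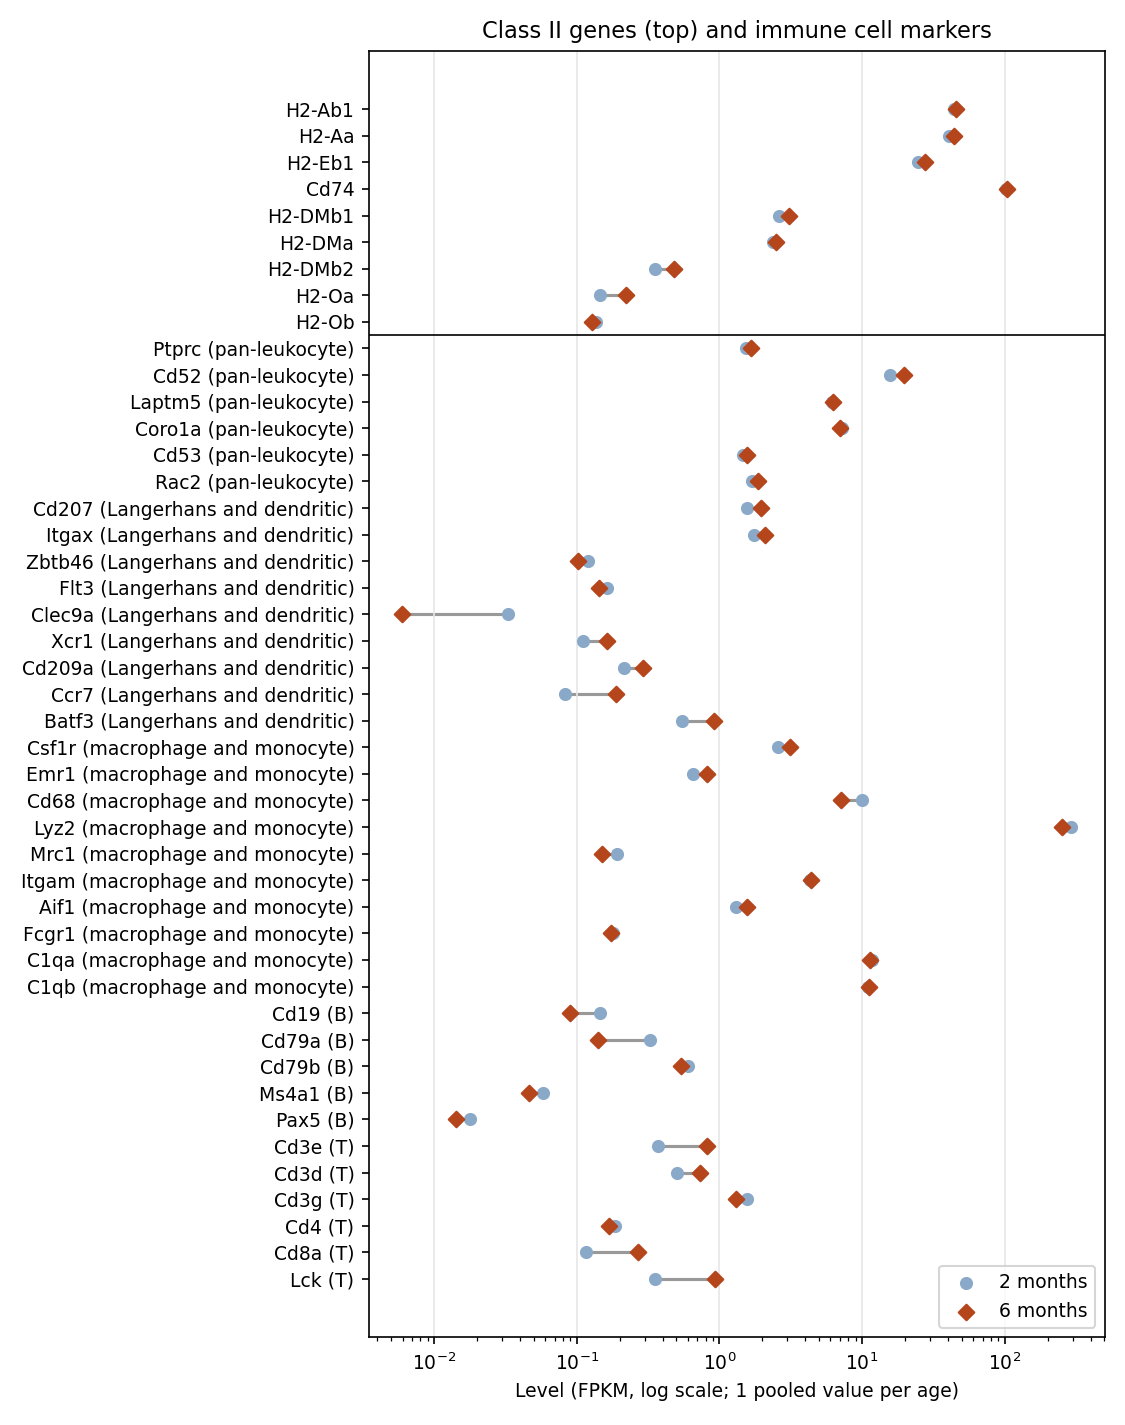
FPKM at 2 months (circles) and 6 months (diamonds) on a log axis for class II members (above the line) and for markers of leukocytes, Langerhans and dendritic cells, macrophages and monocytes, B cells and T cells (below), 1 pooled value per age. The class II chains and Cd74, from 24.7 to 103.8 FPKM, lie above every Langerhans, dendritic, B and T cell marker, and only Lyz2 lies above Cd74.

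The peptide transporter was higher at 6 months in both subunits. Tap1 was at 8.61 and 9.87 FPKM and Tap2 at 11.1 and 13.2 FPKM, with changes of 0.18 and 0.24, and the Tap2 to Tap1 ratio was 1.29 and 1.34. Tapbp, the bridge between the transporter and the heavy chain, was at 54.9 and 52.7 FPKM, a change of -0.06. Neither co-activator reached a mean of 1 FPKM. Nlrc5, the class I co-activator (chromosome 8, 94434335 to 94527272), was at 0.485 and 1.08 FPKM, a change of 0.49 and a ratio of 2.23, and 2.71% of the 2140 genes of like level changed as much. Ciita, the class II co-activator on chromosome 16, was at 0.361 and 0.439 FPKM, a change of 0.08. H2-Ke2 (70.4 and 65.2 FPKM) and H2-Ke6 (37.6 and 40.6 FPKM), the H2- names without an MHC product, lay on either side of 0 with changes of -0.11 and 0.11.

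Other genes of the pathway did not share the members' direction. Of 50 pathway genes outside the name rule, 44 were expressed, 15 were higher and 29 lower at 6 months, with a median of -0.04, and 0 reached 1.5-fold in either direction, where 1.05% of all expressed genes were that much higher and 1.72% that much lower. At the smaller threshold, 6 were lower and 0 higher, beside 4.23% and 2.95% of all expressed genes. All 5 genes of peptide loading and trimming were lower, with the chaperone Calr at 441.0 and 331.2 FPKM (-0.41) and Pdia3, the disulphide isomerase of the loading complex, at 242.2 and 191.2 FPKM (-0.34). All 6 genes of class II processing were lower too, with the protease Ctsl at 152.0 and 118.1 FPKM (-0.36), Ctss at 14.2 and 11.9 FPKM and the highest of them, Ctsd, at 467.1 and 460.4 FPKM. Calr, Pdia3 and the cathepsins serve protein folding and lysosomes of all cells, beyond antigen presentation.

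The immunoproteasome, which replaces 3 subunits of the constitutive proteasome under interferon, was mixed. Psmb9 was at 5.04 and 5.86 FPKM, Psmb8 at 5.74 and 6.17 FPKM, and Psmb10 at 12.6 and 10.7 FPKM. Set against the constitutive subunit that each replaces, Psmb9 was at 0.0355 and 0.0457 of Psmb6, Psmb8 at 0.0326 and 0.0386 of Psmb5, and Psmb10 at 0.0811 and 0.0685 of Psmb7. The activator subunit Psme2 was the highest gene of the list, at 114.2 and 109.9 FPKM. Of 14 interferon signalling genes, 10 were lower at 6 months and the median was -0.03. The highest was Jak1 at 28.3 and 29.0 FPKM. Irf1, a factor that binds the ISRE, was at 16.0 and 13.8 FPKM, and the inhibitor Socs1 at 4.34 and 2.99 FPKM (-0.42). Of the 7 factors that bind the X and Y boxes, 4 were higher, with a median of 0.03, and Nfyc was the highest at 31.6 and 27.7 FPKM (-0.18), with Rfx5 at 7.23 and 6.91 FPKM.

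MHC-like proteins encoded outside the H2 names went both ways. Procr, highest of the list, was at 16.9 and 12.3 FPKM (-0.43), and the lipid-presenting Cd1d1 was at 2.63 and 1.79 FPKM (-0.38). Mr1, which presents vitamin B metabolites, was at 5.77 and 6.47 FPKM, and the iron regulator Hfe at 1.42 and 1.83 FPKM. Of 6 costimulatory ligands, Icosl was the highest at 5.93 and 6.42 FPKM, while Cd80 (0.378 and 0.507 FPKM) and Cd86 (0.531 and 0.555 FPKM), the ligands of professional presenting cells, were under 1 FPKM.

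Other genes of the same stretch of chromosome were evenly split. Between Tapbp and H2-M2 on chromosome 17 (positions 33919478 to 37483554), where 40 members lie by their RefSeq positions, the table has 145 other genes, 94 of them expressed. Of those, 46 were higher and 48 lower at 6 months, with a median of -0.01.

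Class I heavy chain genes share stretches of sequence, and the values of single genes are uncertain where reads could be divided. The share of 50-base windows of a gene's transcripts that also occurs in transcripts of another gene, a measure added after the values had been seen, was 0% for B2m, Cd74, Nlrc5, Ciita, H2-Ab1 and H2-Eb1 and 0.488% for H2-Aa. It was 9.63% for H2-K1, 12.8% for H2-D1 and 13.6% for H2-T23. Among class Ib genes it reached 21.8% for H2-Q4, 36.4% for H2-Q5, 32.0% for H2-Q6, 26.4% for H2-Q7, 32.9% for H2-T10 and 34.5% for H2-T22. In class II it was 22.7% for H2-DMb1 and 24.8% for H2-DMb2, most of it shared within this pair. H2-L, H2-T9, H2-Q8 and H2-Q9 were not matched to that annotation. Exons of antisense genes cover 19.1% of H2-Q4, 29.4% of H2-T22 and 24.9% of Tapbp, 86.4% of H2-Ke6 lies in a same-strand read-through transcript, and the study's methods name no step that marks strand and give default mapping settings, so reads of a gene and its antisense partner cannot be told apart.

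**Figure D5:**
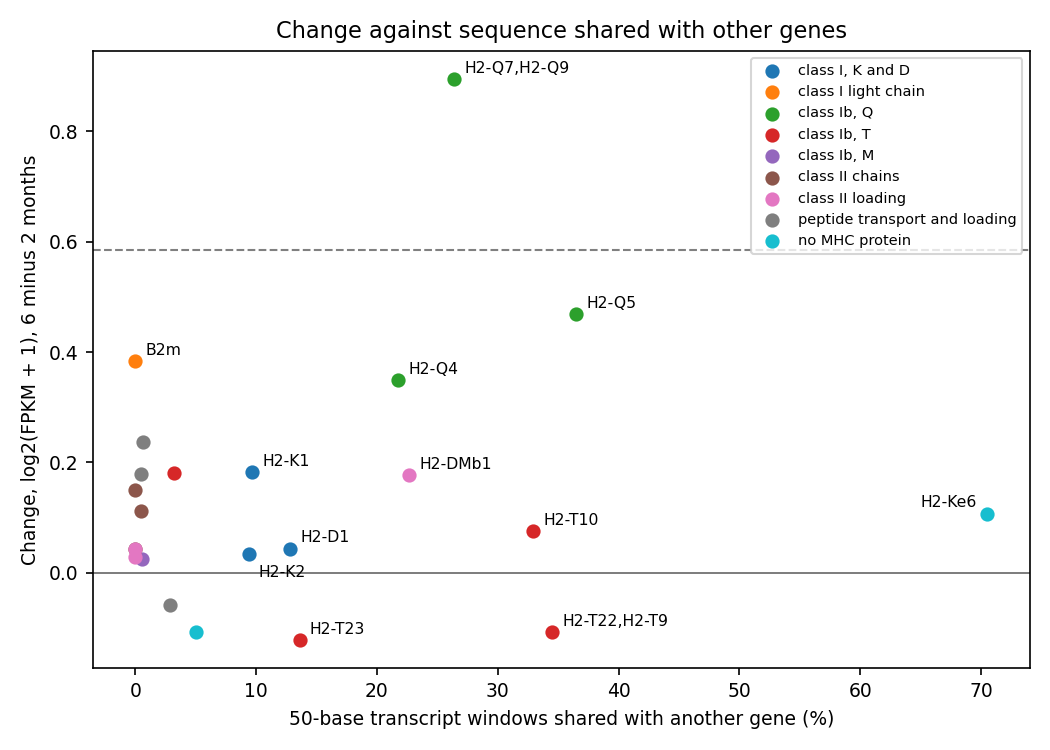
Change in log2(FPKM + 1), 6 months minus 2 months, of the expressed members matched to the transcript annotation (points, coloured by role) against the percent of their 50-base transcript windows that also occur in another gene; the dashed line marks 1.5-fold. H2-Q4, H2-Q5 and H2-Q7,H2-Q9 lie between 21.8% and 36.4%, and B2m lies at 0% with a change of 0.38.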

How the data were processed

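Each of 2 ages (2 and 6 months) was sampled as 3 pools of CV/Fol taste cells, 6 RNA libraries in all. Per the submitters' processing notes and the study's methods, the authors mapped poly(A) libraries to GRCm38/mm10 with TopHat2 2.0.7, quantified RefSeq genes with Cufflinks 2.1.1 and used Cuffdiff to compare the groups. They deposited 1 FPKM value per gene and age. A further column holds p-values of the authors' own comparison and was not used. The columns were assigned to ages by the group letters of the sample titles. The normalization of Cuffdiff and the read length are not given in the sources used here. FPKM values do not carry the depth of a library, so the precision of each value is unknown.

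The members and gene lists were chosen with earlier results of these data known. Changes were computed as differences of log2(FPKM + 1), a mean of at least 1 FPKM counted as expressed, and 1.5-fold on that scale was the size threshold. No model was fitted, and counts and medians are set beside those of all expressed genes. The 3 rows with 2 symbols were kept as given. Every expressed member is named, as are members averaging 0.1 FPKM or more. Of the pathway lists, genes past 1.5-fold and the highest of each group are named, and the others named were chosen after their values were seen. Genes of like level are those within 2-fold of a member's mean. Alternatives were a pseudocount of 0.1 FPKM, no filter, a minimum mean of 5 FPKM, a fold of 2, a change of 0.322, and scaling by upper quartile or median change. Promoter sequences were those of RefSeq (GRCm38.p6), and transcript windows and exon overlaps those of GENCODE annotation of GRCm38. A protein table was not used here. The tools were Python 3.11.15 with numpy 2.4.6, pandas 2.3.3 and, for figures, matplotlib 3.10.9.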

Additional observations from a re-analysis of the deposited data

How the results depend on the processing

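The count of 21 of 25 expressed members higher at 6 months stayed the same under both scalings. Both raise the 6 month values, so that count could not fall. A pseudocount cannot turn the sign of a change and bears only on its size. The median over the members ranged from 0.07 without a filter on level to 0.15 without H2-Ke2 and H2-Ke6. The number at least 1.5-fold higher, 1 as reported, depended on the settings: it was 2 with a pseudocount of 0.1 FPKM, 2 with no filter beyond a value above 0, 0 with a minimum mean of 5 FPKM, 0 at 2-fold and 5 with a change of 0.322 as the threshold. The number lower was 0 under every alternative run. The median of the 3 expressed Q rows was 0.61 with the smaller pseudocount, against 0.47, since weakly expressed rows move most with it. On that scale the change of Nlrc5 was 1.02, that of H2-Q7,H2-Q9 1.58 and that of H2-Q6,H2-Q8 1.83. No paired analysis was possible because single pools have no values, and no pool could be left out, so every difference given here is one between 2 pooled values.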
